A study of Homo sapiens with 12 samples.

Results

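LIF, IL6, IL24, CXCL8, PTX3, CSF2, IL1A and IL1B encode secreted mediators of inflammation and pain. Their transcripts were followed in HSC-3 cells, an established human tongue squamous carcinoma line, after emptying of the calcium stores with or without a block of ORAI channels. The 8 genes were named with earlier results of these data known, and each was read at its own row and, where there was one, at the counted feature with most reads whose exons overlap the gene's exons by at least 30 bases on the other strand. This gave 12 rows of 60675, made up of 8 own rows and 4 opposite features (LIF-AS2 for LIF, IL6-AS1 for IL6, FCMR for IL24 and VEPH1 for PTX3). No counted feature met this rule for CXCL8, CSF2, IL1A or IL1B. Of the 12 rows, 10 had at least 5 reads in 2 of the 4 libraries of a group and were tested, and the own rows of LIF and CSF2 did not pass this filter.

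Total RNA was sequenced in 12 libraries of HSC-3 cells, 4 in each of 3 groups. The groups were cells given cyclopiazonic acid (CPA, 25 µM, 3 hours) together with synta-66, cells given CPA alone, and untreated cells. CPA inhibits the SERCA calcium pump and so drains the endoplasmic reticulum of calcium, and synta-66 inhibits ORAI, the pore of store-operated calcium entry. The sources used here give no dose of synta-66, and a group with synta-66 alone was not analysed here. Whether the 4 libraries of each group are separate cultures is not in the labels, so the p-values measure the spread between these libraries, which may be technical.

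Calcium that enters through ORAI activates the phosphatase calcineurin, which lets NFAT factors enter the nucleus, where they act with AP-1 and NF-kB on many cytokine genes. LIF and IL6 signal through the shared receptor chain gp130 to STAT3. IL24 belongs to the IL10 family and signals through IL20 receptors in epithelium, CXCL8 attracts neutrophils, CSF2 drives myeloid growth, and PTX3 is a secreted pattern recognition protein of innate immunity. IL1A and IL1B start inflammatory signalling through the IL1 receptor, and IL1B and IL6 are known to sensitise pain-sensing neurons.

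Gene reads per library ranged from 2819486 to 5458858, which was 3.58% to 9.4% of the uniquely aligned reads. The 2 mitochondrial ribosomal RNAs took 3.12% to 53.5% of gene reads in CPA with synta-66 libraries, 0.165% to 9.43% in CPA libraries and 1.14% to 39.6% in untreated libraries. CPA with synta-66 replicates 1 and 4 and untreated replicate 3 stood apart, with the most non-unique alignments (486 M, 350 M and 268 M) and the highest shares of these 2 RNAs (53.5%, 49.4% and 39.6%). Their part in the results was not tested beyond repeating each fit without the 3 libraries. Of 16 epithelial and keratinocyte markers 14 were tested at their own rows. Over the 12 libraries KRT8, which lies opposite KRT18, held 365827 reads, and the other tested markers held 30 (TP63) to 1831 (KRT18). None of 10 fibroblast markers was tested, and 5 of these were at 0. Of 11 immune cell markers 3 were tested, CSF1R, CD68 and CD14 (494, 206 and 40 reads over the 12 libraries). CD3E, CD3D, MS4A1 and TYROBP were at 0. The summed level of the tested immune markers was 10.9 to 15 CPM (reads per 1000000 gene reads, TMM-scaled) in CPA with synta-66 libraries, 11.9 to 18.1 in CPA libraries and 13.8 to 26.6 in untreated libraries. Of 7 endothelial cell markers 1 was tested, CLDN5 (304 reads). No marker of these lists was called at its own row in any of the 3 comparisons. In bulk RNA, fewer cells that express a gene and less RNA per cell cannot be told apart.

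The features that carried most of the reads overlap the cytokine genes by 71 to 823 exon bases, so each of these readings may hold reads of either gene. The counting took the library as stranded, and whether its strand setting matched the kit could not be settled. An own row may therefore hold reads from the other strand of the gene, and an opposite feature may hold reads of the gene itself. For CXCL8, CSF2, IL1A and IL1B, which had no opposite feature, reads of the gene may be missing from the counts read here. The coordinates are those of GENCODE 44 on GRCh38. LIF (chr22:30240453-30246759, minus strand) shares 83 exon bases with LIF-AS2, a long noncoding RNA on the plus strand (chr22:30246205-30246998), which is 10.5% of the LIF-AS2 exon bases. Of these, 19 are coding and 64 are untranslated bases of LIF. IL6 (chr7:22725884-22732002, plus strand) shares 428 exon bases with the noncoding IL6-AS1 (chr7:22725395-22727620, minus strand), which is 31.4% of the IL6-AS1 exon bases. Of these, 53 lie in the IL6 MANE Select transcript, the reference transcript of the gene, and all 53 are coding. IL24 (chr1:206897443-206904139, plus strand) shares 823 bases, all untranslated in its MANE Select transcript, with exons of FCMR (chr1:206903317-206923247, minus strand), the gene of an IgM receptor. This is 24.1% of the FCMR exon bases and 41.6% of those of IL24. PTX3 (chr3:157436850-157443633, plus strand) shares 71 bases, 20 coding and 51 untranslated, with VEPH1 (chr3:157259742-157533619, minus strand), which is 1.09% of the VEPH1 exon bases.

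The coding stretches of IL6 (chr7:22727548-22727634) and PTX3 (chr3:157436934-157437013) that reach the opposite features are shown as the places where the coding sequence of each gene meets the feature at which it was read. They are a small part of that feature, whose reads were counted over all its exons: the 53 capital bases are 3.89% of the IL6-AS1 exon bases, and the whole PTX3 overlap is 1.09% of those of VEPH1. They are on the plus strand of GRCh38, and capitals mark the bases that also lie in an exon of IL6-AS1 or of VEPH1. The PTX3 stretch opens with the start codon of PTX3.
IL6 at IL6-AS1: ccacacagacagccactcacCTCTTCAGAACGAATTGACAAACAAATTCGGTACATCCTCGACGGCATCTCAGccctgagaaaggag
PTX3 at VEPH1: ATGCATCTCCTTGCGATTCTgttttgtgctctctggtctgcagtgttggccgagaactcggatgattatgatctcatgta

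**Figure D1:**
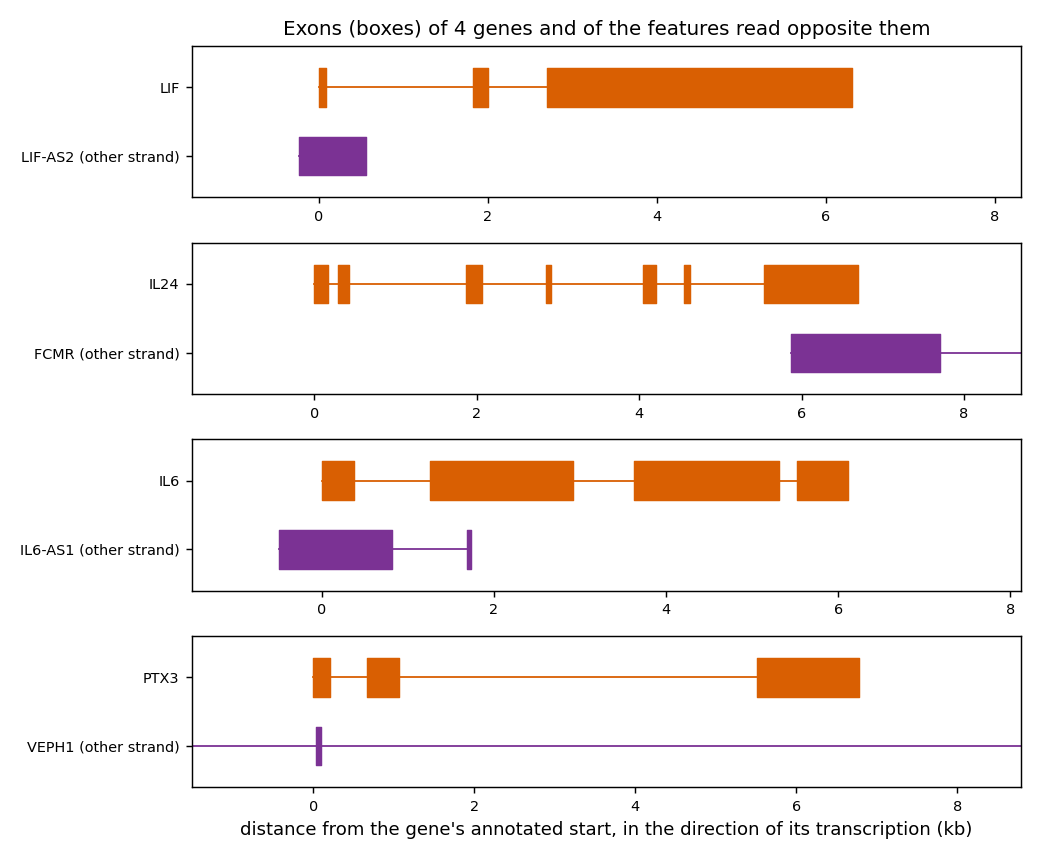
Exons of LIF, IL6, IL24 and PTX3 (boxes) and of the opposite features LIF-AS2, IL6-AS1, FCMR and VEPH1, by distance in kb from the gene's start in its direction of transcription (FCMR and VEPH1 run beyond the plot). Shared stretches are where a lower box lies under an upper one, and they come to 83 bases for LIF, 428 for IL6, 823 for IL24 and 71 for PTX3.

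CPA alone raised 3 of the 4 opposite readings, those of LIF, IL6 and PTX3, and lowered none. Across all 14911 rows tested, 2.85% were called in either direction, 1.8% higher and 1.05% lower, and in 10.3% the groups did not overlap. Among 3958 coding genes read at an opposite feature, 3.44% were called higher and 1.31% lower, and in 15.8% the groups did not overlap, against 3 of these 4. Each such feature was tested and lay opposite 1 coding gene only, as did those of these 4. As the genes were named with results known, these counts are a description beside the shares. Here a row was called when edgeR's quasi-likelihood test gave it an adjusted p under 0.05 and its change was at least 1.5-fold. No own row of the 6 tested was called between CPA and untreated cells, and 2 of them had an unadjusted p under 0.05.

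Adding synta-66 to CPA split the 4 opposite readings. LIF and IL24 fell, PTX3 rose further, and IL6 was not called. Of all rows, 4.76% were called in either direction, 1.94% higher and 2.82% lower, and in 12.3% the groups did not overlap. Of genes read at an opposite feature, 2.7% were called higher and 4.37% lower, and in 19.6% the groups did not overlap, against 4 of these 4. IL6 was the 1 own row of 6 called, and it was higher.

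CPA with synta-66 against untreated cells left PTX3 and IL6 higher at their opposite features, and CXCL8 higher at its own row, with no reading lower. The CXCL8 row passed the filter only through CPA with synta-66. Of all rows, 2.9% were called in either direction, 1.66% higher and 1.24% lower, and in 9.21% the groups did not overlap. Of genes read at an opposite feature, 2.88% were called higher and 1.29% lower, and in 12.9% the groups did not overlap, against 2 of these 4. The 3 comparisons share their libraries in pairs and are not independent of each other.

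LIF, the gp130 ligand, was higher with CPA and lower again with synta-66 when read at LIF-AS2. It had 9.33, 5.63, 5.16 and 6.09 CPM in CPA with synta-66 libraries, 12.4, 12.1, 20.3 and 10.8 CPM in CPA libraries, and 5.62, 3.4, 1.88 and 3.22 CPM in untreated libraries. All 4 CPA libraries were above every other library, and the CPA with synta-66 and untreated groups overlapped. The means were 6.55 ± 1.89, 13.9 ± 4.31 and 3.53 ± 1.55 CPM in CPA with synta-66, CPA and untreated cells (SD, n = 4 each). LIF at LIF-AS2 rose with CPA by a log2 fold change of 1.94 ± 0.35 (SE) against untreated cells (edgeR, adjusted p = 0.000176). It fell by 1.11 ± 0.34 on the log2 scale in CPA with synta-66 against CPA (adjusted p = 0.0367). This second call rested on few reads, 83 in all in CPA with synta-66 libraries and 249 in CPA libraries. Leaving out CPA replicate 2 (adjusted p = 0.0511) or 3 (0.212) ended the call, as did leaving out replicate 2 (0.0993), 3 (0.119) or 4 (0.075) of CPA with synta-66. It held without the 3 libraries that stood apart (log2 fold change -1.39, adjusted p = 0.0306). Between CPA with synta-66 and untreated cells the log2 difference of 0.83 ± 0.37 missed the call (adjusted p = 0.272).

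The own row of LIF held 0, 12, 0 and 2 reads in CPA with synta-66 libraries, 0, 2, 0 and 5 in CPA libraries, and 0, 2, 3 and 2 in untreated libraries. These counts are too low for the filter, and every group had a library at 0. Fitted without the filter, the log2 difference at the own row was 1.17 for CPA with synta-66 against CPA (adjusted p = 0.697), of the other sign than at LIF-AS2. It was 0.96 for CPA with synta-66 against untreated cells (adjusted p = 0.824) and -0.21 for CPA against untreated cells (adjusted p = 1.0).

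IL6, the other gp130 ligand, gave opposite directions at its 2 rows under CPA. At IL6-AS1 it had 34.1, 28.8, 31.2 and 24.4 CPM in CPA with synta-66 libraries, 20.4, 19.3, 23.3 and 22.4 CPM in CPA libraries, and 7.29, 8.8, 12.5 and 6.74 CPM in untreated libraries. The 3 groups did not overlap, with CPA with synta-66 highest and untreated lowest. IL6 at IL6-AS1 rose by 1.29 ± 0.22 (log2, SE) in CPA against untreated cells (adjusted p = 7.57e-05) and by 1.76 ± 0.22 in CPA with synta-66 against untreated cells (adjusted p = 1.73e-07). The further step in CPA with synta-66 against CPA, a log2 difference of 0.47 ± 0.20, was not called (adjusted p = 0.18). The means were 29.6 ± 4.11, 21.4 ± 1.85 and 8.83 ± 2.6 CPM in CPA with synta-66, CPA and untreated cells (SD, n = 4 each).

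At its own row IL6 had 3.65, 8.33, 7.37 and 10.4 CPM in CPA with synta-66 libraries, 3.35, 2.79, 2.66 and 0.648 CPM in CPA libraries, and 3.33, 4.6, 12.5 and 6.74 CPM in untreated libraries. The CPA libraries were the lowest, below every CPA with synta-66 library and overlapping the untreated group at 1 library. The own row rose by 1.66 ± 0.47 (log2, SE) in CPA with synta-66 against CPA (adjusted p = 0.0205). Leaving out CPA replicate 4 ended this call (log2 fold change 1.34, adjusted p = 0.0882), and so did leaving out replicate 2 (0.0558) or 4 (0.0752) of CPA with synta-66. The difference of CPA from untreated cells, -1.49 ± 0.47 on the log2 scale, missed the call with an adjusted p of 0.0582. DESeq2 called it (adjusted p = 0.0303), and edgeR did so without the filter (0.0454), without untreated replicate 1 (0.0314) and without CPA with synta-66 replicate 1 (0.0491). It was not called without the 3 libraries that stood apart (-1.03, adjusted p = 0.339).

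The log2 ratio of reads at IL6-AS1 to reads at the IL6 row was 2.0 ± 0.787 in CPA with synta-66 libraries, 3.07 ± 0.861 in CPA libraries and 0.473 ± 0.549 in untreated libraries (SD, n = 4 each, 0.5 CPM added to both). It differed between CPA and untreated cells by 2.59, with no overlap. The exact two-sided permutation test gave p = 0.0286, the smallest that 4 against 4 can give. Adjusted over 12 such tests it was 0.0857. None of the 12 tests passed an adjusted p of 0.05. With this smallest p, a test can pass only if many of the 12 reach it, so no conclusion is drawn from this.

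**Figure D2:**
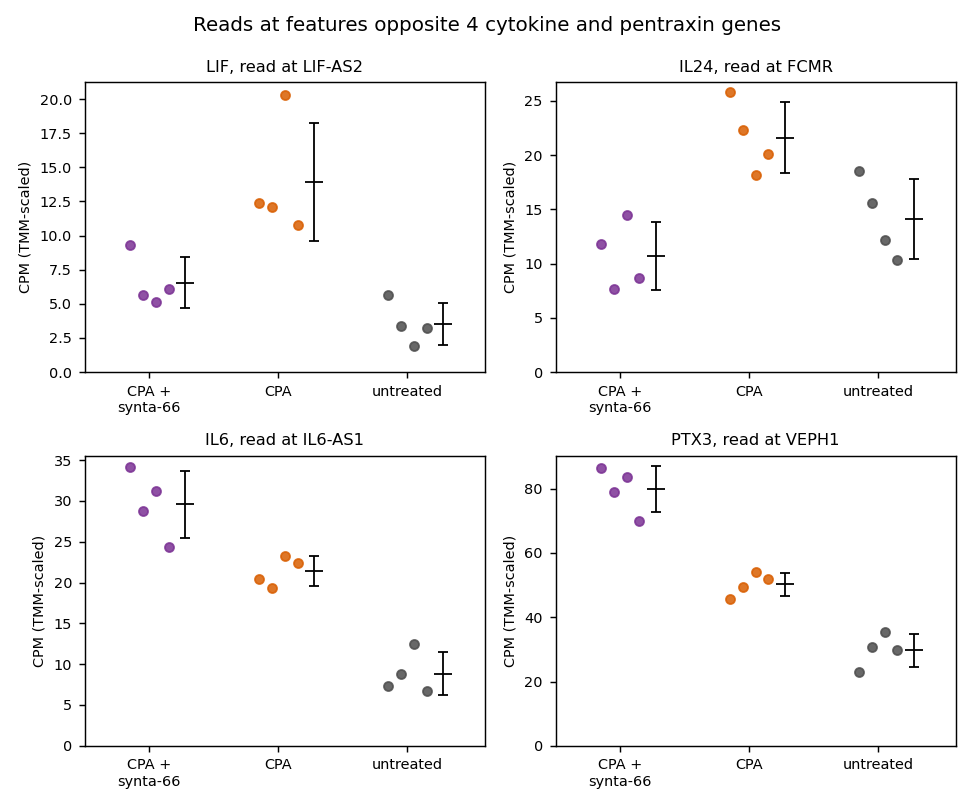
Level in CPM of LIF, IL24, IL6 and PTX3 at their opposite features in CPA with synta-66, CPA and untreated libraries (points), with the mean and SD of 4 libraries. LIF and IL24 are highest in CPA cells (means 13.9 and 21.6 CPM), while IL6 and PTX3 are highest in CPA with synta-66 cells (means 29.6 and 79.8 CPM).

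PTX3, the long pentraxin, was highest in CPA with synta-66 cells when read at VEPH1, the feature of the 4 with most reads (2437 over 12 libraries). It had 86.4, 79.1, 83.5 and 70.1 CPM in CPA with synta-66 libraries, 45.7, 49.3, 54.0 and 51.8 CPM in CPA libraries, and 22.9, 30.8, 35.3 and 29.9 CPM in untreated libraries. The 3 groups did not overlap. PTX3 at VEPH1 rose by 0.77 ± 0.14 (log2, SE) in CPA against untreated cells (adjusted p = 0.000182). It rose by a further 0.67 ± 0.13 in CPA with synta-66 against CPA (adjusted p = 0.000533) and by 1.43 ± 0.14 in CPA with synta-66 against untreated cells (adjusted p = 2.72e-10). Most of the exon bases of VEPH1, which encodes a pleckstrin homology domain protein, lie outside PTX3, and the reads of the 2 genes could not be divided. The own row of PTX3 held 0, 10, 0 and 4 reads in CPA with synta-66 libraries, 8, 6, 4 and 2 in CPA libraries and 16, 2, 0 and 0 in untreated libraries. The groups overlapped, untreated replicate 1 held 16 of the 18 untreated reads, and no comparison at the own row was called (adjusted p = 0.959, 0.959 and 0.995).

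IL24, the IL10 family cytokine, was lower in CPA with synta-66 than in CPA cells when read at FCMR. It had 11.8, 7.66, 14.5 and 8.7 CPM in CPA with synta-66 libraries, 25.8, 22.3, 18.2 and 20.1 CPM in CPA libraries, and 18.5, 15.6, 12.2 and 10.3 CPM in untreated libraries. Every CPA with synta-66 library was below every CPA library, while CPA and untreated libraries overlapped at 1 library of each group. IL24 at FCMR fell by 1.01 ± 0.25 on the log2 scale in CPA with synta-66 against CPA (adjusted p = 0.00626). The difference of CPA from untreated cells was 0.59 ± 0.24 and was not called (adjusted p = 0.191), nor was that of CPA with synta-66 from untreated cells, -0.42 ± 0.26 (adjusted p = 0.497). The means were 10.7 ± 3.1, 21.6 ± 3.27 and 14.1 ± 3.67 CPM in CPA with synta-66, CPA and untreated cells (SD, n = 4 each).

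At its own row IL24 had 15.4, 8.33, 10.1 and 9.57 CPM in CPA with synta-66 libraries, 10.1, 8.37, 8.8 and 2.81 CPM in CPA libraries, and 11.4, 10.4, 12.8 and 11.7 CPM in untreated libraries. All CPA libraries were below all untreated libraries, but the difference of -0.63 ± 0.32 (log2) was not called (adjusted p = 0.34), nor was the difference of 0.52 ± 0.32 in CPA with synta-66 against CPA (adjusted p = 0.414). The log2 ratio of reads at FCMR to reads at the IL24 row was -0.0292 ± 0.375 in CPA with synta-66 libraries, 1.58 ± 0.721 in CPA libraries and 0.245 ± 0.434 in untreated libraries. It differed by -1.61 between CPA with synta-66 and CPA cells and by 1.34 between CPA and untreated cells, each without overlap (exact two-sided permutation tests, p = 0.0286 each, adjusted p = 0.0857 each).

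CXCL8, the neutrophil chemokine, had no read at its own row in any untreated library. It had no opposite feature, and the strand setting was not settled, so these counts do not show that its transcript was absent. Its own row held 6, 6, 6 and 8 reads in CPA with synta-66 libraries, 4, 10, 2 and 0 in CPA libraries, and 0, 0, 0 and 0 in untreated libraries. Every CPA with synta-66 library held more reads than every untreated library, and the CPA group overlapped both others. CXCL8 was called higher in CPA with synta-66 than in untreated cells (26 reads against 0, edgeR adjusted p = 0.0123). The row passed the filter only through the CPA with synta-66 group, where it was high, so the call is a description of these counts. Its pooled level was 10.7-fold a floor set at 3 reads over the untreated group, a ratio that leaves out the error of the 26 reads. Reads of a pair may have been counted singly, which could not be settled. CPA cells were at 4.95-fold the same floor (16 reads against 0), with an adjusted p of 0.0625 against untreated cells and so no call. Leaving out CPA replicate 4, the library with no read, gave a call (adjusted p = 0.0343), and leaving out CPA replicate 2, which held 10 of the 16 reads, gave an adjusted p of 0.23. Between CPA with synta-66 and CPA the log2 difference was 1.17 ± 1.04 and was not called (adjusted p = 0.603). The call for CPA with synta-66 against untreated cells was lost without the 3 libraries that stood apart (adjusted p = 0.179), where 6 and 6 reads in CPA with synta-66 libraries stood against 0 in each of the 3 untreated libraries kept. All 7 counts of CXCL8 above 0 were even numbers, as were all 8 of the PTX3 own row, against 54.5% of all counts from 1 to 20. Of the counts above 0 at other own rows with few reads, 5 of 7 were even for LIF, 4 of 5 for CSF2 and 6 of 9 for IL1B. Even counts were 6 of 12 at the IL1A own row and 7 of 12 at each of IL6-AS1 and VEPH1. They were 5 of 12 at each of the own rows of IL6 and IL24, LIF-AS2 and FCMR. The cause was not tested.

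CSF2, IL1A and IL1B were read at their own rows only and gave no call. With no opposite feature and the strand setting not settled, this does not show that their transcripts were unchanged. CSF2 held 2, 0, 0 and 0 reads in CPA with synta-66 libraries, 8, 1, 0 and 2 in CPA libraries and 0, 2, 0 and 0 in untreated libraries. These counts do not allow a difference to be detected at this depth, and without the filter the log2 difference of CPA from untreated cells was 2.3 with an adjusted p of 0.605.

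IL1A had 4.06, 1.13, 5.41 and 3.48 CPM in CPA with synta-66 libraries, 3.61, 4.65, 5.53 and 3.67 CPM in CPA libraries, and 2.08, 4.2, 4.06 and 0.879 CPM in untreated libraries. The 3 groups overlapped, and the log2 differences were 0.63 ± 0.52 for CPA against untreated cells (adjusted p = 0.648) and -0.33 ± 0.52 for CPA with synta-66 against CPA (adjusted p = 0.816). IL1B held 0, 0, 4 and 3 reads in CPA with synta-66 libraries, 0, 8, 3 and 1 in CPA libraries and 6, 2, 4 and 6 in untreated libraries, with adjusted p of 0.841, 0.941 and 0.785 in the 3 comparisons. The IL1B groups overlapped, and 3 libraries held no read.

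**Figure D3:**
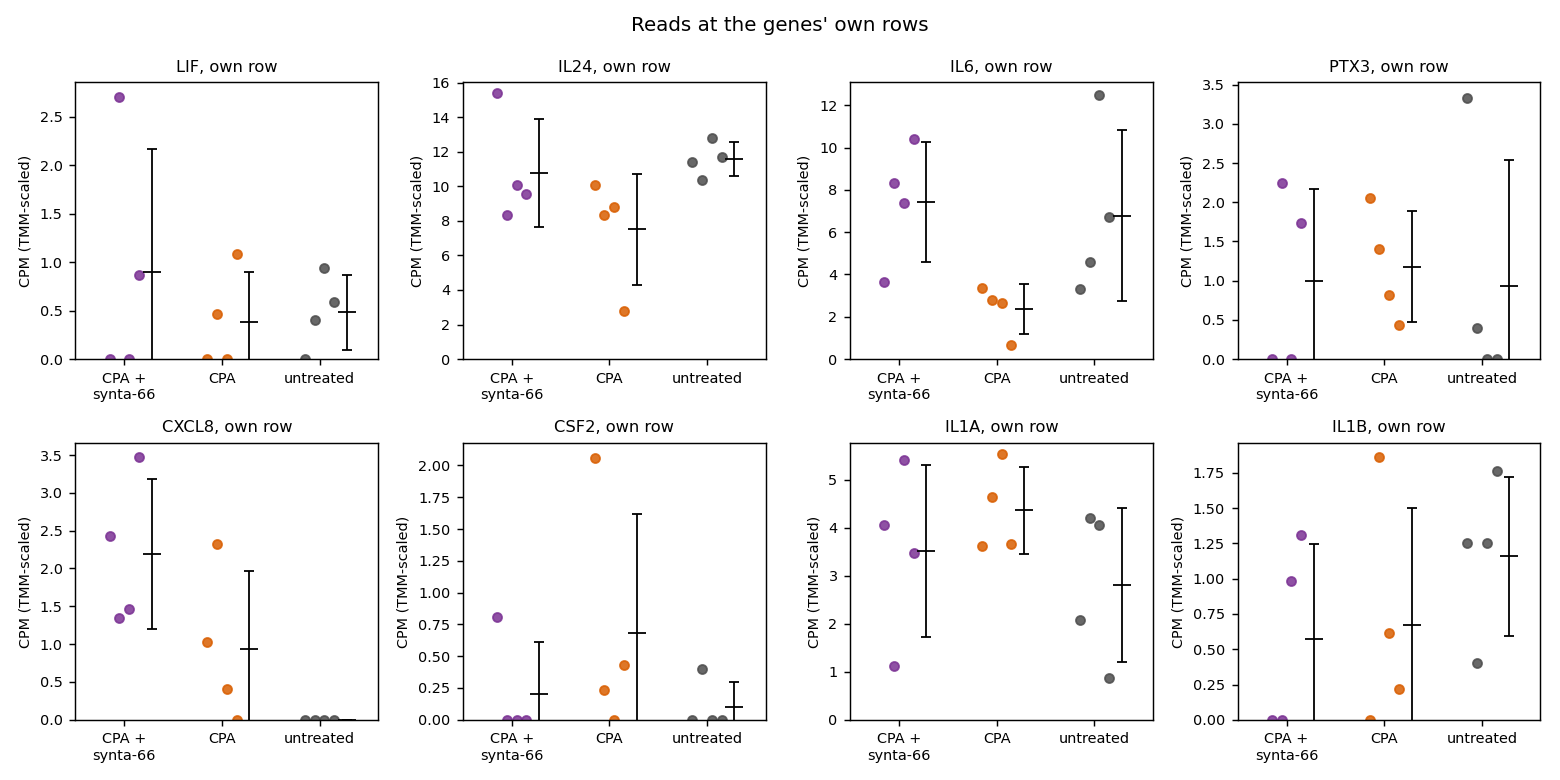
Own-row levels in CPM of the 8 genes in CPA with synta-66, CPA and untreated libraries (points), with the mean and SD of 4 libraries (bars are drawn down to 0 at most). IL6 is lowest in CPA cells (mean 2.36 CPM), and CXCL8 is at 0 in all 4 untreated libraries.

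The 4 opposite readings were set against each other within each library, because LIF and IL24 had moved down and PTX3 up in CPA with synta-66 against CPA. The log2 ratio of LIF to IL6 was -2.12 ± 0.31 in CPA with synta-66 and -0.64 ± 0.339 in CPA libraries (SD, n = 4 each), a difference of -1.48. The ratio of LIF to PTX3 differed by -1.68, that of IL24 to IL6 by -1.47 and that of IL24 to PTX3 by -1.68, and in each the groups did not overlap. Each had p = 0.0286 in an exact two-sided permutation test, the smallest possible, and 0.0571 after adjustment over 18 such tests. The ratio of LIF to IL24 was -0.66 ± 0.505 in CPA with synta-66 and -0.65 ± 0.54 in CPA libraries (exact permutation p = 0.971), and the ratio of IL6 to PTX3 differed by -0.21 (exact permutation p = 0.0571, adjusted p = 0.0935). The pairs were chosen with the changes known, so these tests describe the contrast and add no independent evidence.

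Per kilobase of feature exon, the order of levels was not the order of CPM. In CPA cells LIF-AS2 had 17.5, IL6-AS1 15.7, VEPH1 7.67 and FCMR 6.32 CPM per kb. In untreated cells IL6-AS1 had 6.47, VEPH1 4.54, LIF-AS2 4.45 and FCMR 4.14 CPM per kb, which are close to each other. In CPA with synta-66 cells IL6-AS1 led with 21.7 CPM per kb, above VEPH1 at 12.2, LIF-AS2 at 8.25 and FCMR at 3.12. On the same scale the own rows lay between 0.0997 CPM per kb for LIF and 3.79 for IL24 in CPA cells. The IL24 own row had 5.48 CPM per kb in CPA with synta-66 cells, above FCMR. In untreated cells it had 5.86 CPM per kb, above FCMR, LIF-AS2 and VEPH1.

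**Figure D4:**
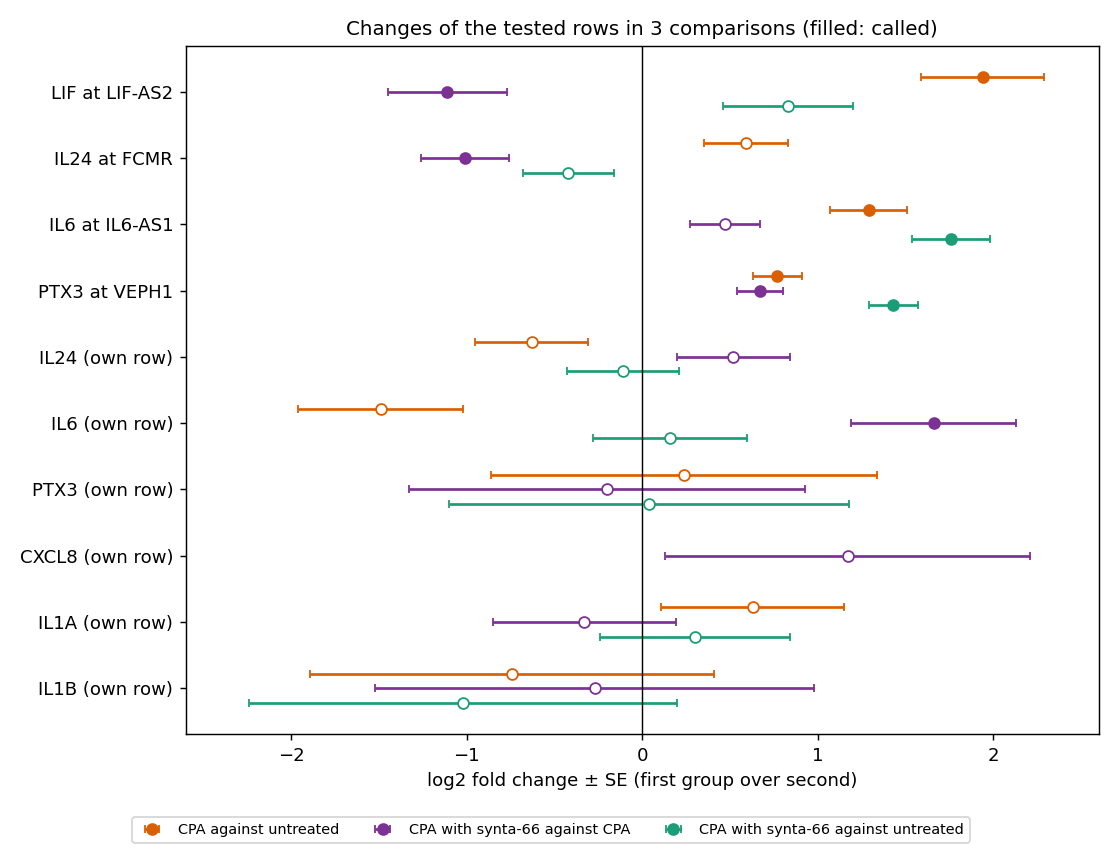
Log2 fold change with SE of each tested row in CPA against untreated, CPA with synta-66 against CPA, and CPA with synta-66 against untreated cells (filled points were called). LIF at LIF-AS2 changed by 1.94 and -1.11 in the first and second of these, PTX3 at VEPH1 by 0.77 and 0.67. CXCL8 has no finite estimate against untreated cells and is drawn for 1 comparison.

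The promoter windows of IL6, PTX3, IL24 and CXCL8 are shown because the rows read for these genes changed in different ways. PTX3 and IL24 had calls only at their opposite features, whose reads may be those of either gene. Windows of 250 bases before to 50 after the start were taken from RefSeq (GRCh38.p14), where 7 of the 8 genes matched (LIF did not). The windows were searched on both strands for the NFAT core GGAAA, the AP-1 motif TGANTCA, the CRE core TGACG and the NF-kB consensus. Over 35116 RefSeq windows these motifs were found in 61.2%, 7.71%, 24.6% and 11.3%, so an NFAT core is common in windows of this length, and the core can lie inside an NF-kB match. The windows lie at chr7:22726950-22727249 (IL6), chr3:157436600-157436899 (PTX3), chr1:206897193-206897492 (IL24) and chr4:73740319-73740618 (CXCL8), all on the plus strand, and capitals mark AP-1 and NF-kB matches.
IL6: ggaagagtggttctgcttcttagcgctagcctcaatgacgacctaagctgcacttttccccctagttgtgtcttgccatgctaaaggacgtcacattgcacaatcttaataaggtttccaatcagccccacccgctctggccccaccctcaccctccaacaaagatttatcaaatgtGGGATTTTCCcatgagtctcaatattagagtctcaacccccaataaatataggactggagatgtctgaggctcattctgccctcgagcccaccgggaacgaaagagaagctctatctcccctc
PTX3: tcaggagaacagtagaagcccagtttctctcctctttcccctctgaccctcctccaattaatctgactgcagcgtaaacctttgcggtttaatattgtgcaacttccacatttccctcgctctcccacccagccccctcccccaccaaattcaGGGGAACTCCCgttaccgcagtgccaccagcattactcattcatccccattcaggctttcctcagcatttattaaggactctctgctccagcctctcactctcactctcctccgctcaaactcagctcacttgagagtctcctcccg
IL24: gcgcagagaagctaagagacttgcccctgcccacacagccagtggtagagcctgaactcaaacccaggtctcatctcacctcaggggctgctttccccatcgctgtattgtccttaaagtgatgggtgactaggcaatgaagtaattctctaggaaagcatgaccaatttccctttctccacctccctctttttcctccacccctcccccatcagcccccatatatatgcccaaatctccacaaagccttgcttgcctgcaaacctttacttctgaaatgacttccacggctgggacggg
CXCL8: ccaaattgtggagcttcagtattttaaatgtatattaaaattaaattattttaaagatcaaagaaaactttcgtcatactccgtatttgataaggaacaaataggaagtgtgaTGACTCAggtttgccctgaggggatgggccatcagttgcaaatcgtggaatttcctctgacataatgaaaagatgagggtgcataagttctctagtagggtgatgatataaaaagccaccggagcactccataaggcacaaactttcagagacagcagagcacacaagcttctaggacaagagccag
The IL6 window had 1 NF-kB match at -73 from the start, 3 NFAT cores and 2 CRE cores. The PTX3 window had 2 overlapping NF-kB matches at -97 and -96 and 3 NFAT cores. The IL24 window had 4 NFAT cores and no AP-1 or NF-kB match in these letters. The CXCL8 window had 1 AP-1 match at -137, 1 NFAT core and 1 CRE core, with no NF-kB match in these letters. A site that departs from the letters searched is not found in this way. CSF2 and IL1B had 3 NFAT cores each, and IL1A had 2 AP-1 matches. A match is a description of letters and was not linked to any change.

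The receptors and signalling partners of these mediators were read in the same way, but only at opposite features that were tested and lay opposite 1 coding gene. Of 21 genes of the IL6 and LIF family and gp130 signalling, 11 were tested at their own rows and 8 at opposite features. In CPA against untreated cells 0 of the 11 own rows and 2 of the 8 opposite readings, LIF and IL6, were called, against 3.44% called higher among all genes read so. These 2 calls are those given above, of genes chosen with results known, and no other opposite reading of the list was called. The median log2 difference was 0.351 over these 8, LIF and IL6 included (0.0305 over all 3958 genes read so), and -0.197 over the 11 own rows (-0.00669 over all rows). In CPA with synta-66 the median of the 8 was -0.066 against CPA and 0.05 against untreated cells. Among 10 genes of the IL20 and IL24 family and receptors, IL20RB, a receptor chain for IL24, had 29.0 ± 1.46 CPM in CPA with synta-66 cells, 12.9 ± 3.05 CPM in CPA cells and 24.1 ± 2.62 CPM in untreated cells when read at IL20RB-AS1 (SD, n = 4 each). It fell by 0.90 ± 0.20 on the log2 scale in CPA against untreated cells (adjusted p = 0.00302) and rose by 1.17 ± 0.20 in CPA with synta-66 against CPA (adjusted p = 6.59e-05).

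Among 21 NFAT and NF-kB regulators none of 13 own rows was called, and 2 of 5 opposite readings rose in CPA and fell with synta-66. Among all genes read at an opposite feature, 3.44% rose in CPA against untreated cells and 4.37% fell in CPA with synta-66 against CPA. The share that did both was not computed. As the lists were chosen with earlier results known, the count is a description. TNFAIP3, the inhibitor of NF-kB signalling also known as A20, had 47.3 ± 10.2 CPM in CPA with synta-66 cells, 114 ± 3.63 CPM in CPA cells and 62.3 ± 7.56 CPM in untreated cells when read at WAKMAR2 (SD, n = 4 each). It rose by 0.87 ± 0.12 on the log2 scale in CPA against untreated cells (adjusted p = 2.96e-06) and fell by 1.25 ± 0.13 in CPA with synta-66 against CPA (adjusted p = 1.3e-09). PPP3CC, a catalytic subunit of calcineurin, was read at ENSG00000251034, where it rose by 0.91 ± 0.20 and fell by 0.89 ± 0.20 in the same comparisons (adjusted p = 0.00263 and 0.00271). In the other lists, CXCL8 was the 1 called of 6 chemokine and receptor own rows, and 0 of 7 IL1 family, 0 of 4 colony stimulating factor, 0 of 3 pentraxin and TNF family, 0 of 6 pain mediator and 0 of 9 cytokine mRNA decay own rows were called in any comparison, where 2.85%, 4.76% and 2.9% of all rows were called in CPA against untreated, CPA with synta-66 against CPA and CPA with synta-66 against untreated cells.

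The rows most like each reading were sought among 6357 rows, by the root mean square difference of log2 CPM over the 12 libraries after centring. IL6 at IL6-AS1 was most like VEPH1 (0.234), the feature read for PTX3, then UFSP2 (0.258) and GON4L (0.275). VEPH1 itself was most like RNF123 (0.171), PPP1CA (0.206) and PCGF3 (0.216). LIF at LIF-AS2 was most like ENSG00000264272 (0.352), which lies opposite TTYH2 and had 13.2 CPM in CPA with synta-66, 32.4 in CPA and 9.65 in untreated cells. IL24 at FCMR was most like ENSG00000254459 (0.22), CGREF1 (0.225) and CDHR2 (0.251), and the IL6 own row was most like PRKG1 (0.373), with 14.4, 6.39 and 14.1 CPM in CPA with synta-66, CPA and untreated cells. CXCL8 was most like ENSG00000273319 (0.33), SART3 (0.361) and LARP6 (0.376).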

How the data were processed

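Total RNA of HSC-3 cells was sequenced in 12 libraries, 4 per group. Each deposited file holds raw counts per gene row, made by the authors with FastQC 0.11.5, Trimmomatic 0.32, STAR 2.5.2a and HTSeq 0.6.1p1 on GRCh38 with Ensembl 84, the library taken as stranded, per the labels' protocols. Trimmomatic 0.36 is named in the submitters' processing notes. No library kit is named in the sources used here.

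The files list 60675 gene rows, and their 5 closing rows of unassigned reads were left out. Counts were tested with edgeR 4.0.16 (R 4.3.3): the study's filter (5 reads or more in 2 of the 4 libraries of any group), TMM scaling, 1 quasi-likelihood fit of 12 libraries by group, and Benjamini-Hochberg adjustment over 14911 rows. A call needs an adjusted p under 0.05 and 1.5-fold. Levels are CPM on TMM-scaled library sizes. Of the gene IDs, 56558 matched GENCODE 44, from which opposite features were taken (at least 30 shared exon bases, most reads). For the lists and the shares over all genes read so, a feature also had to be tested and lie opposite exactly 1 coding gene.

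Ratios added 0.5 CPM and used exact permutation tests (scipy 1.17.1). The similarity search added 1 CPM and kept rows with a mean of 5 CPM or more over the 12 libraries. For each list, up to 4 called genes at a mean of 1 CPM or more were named, and up to 3 most similar rows. A called gene of these lists is not reported here. Alternatives were DESeq2 1.42.0, its size factors, no filter, no minimum fold, other overlap rules, a replicate block and each library left out. The members, lists and ratios were chosen with earlier results of these data known.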

Additional observations from a re-analysis of the deposited data

Results flagged for a closer look

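In 4 of the 36 groups of 4 libraries examined, 1 library stood far from the other 3 in the level of a row, where about 1 in 20 groups would be marked by chance if values were normally distributed. That rate does not hold for rows near 0, where a single library with any read always stands apart. The own row of PTX3 in untreated replicate 1 had 3.33 CPM, against 0, 0 and 0.4 CPM in the other untreated libraries. CSF2 at its own row had 0.811 CPM in CPA with synta-66 replicate 1 and 0 in the others of that group, and 0.4 CPM in untreated replicate 2 and 0 in the other untreated libraries. LIF at LIF-AS2 had 20.3 CPM in CPA replicate 3, against 10.8, 12.1 and 12.4 CPM in the other CPA libraries. The first 3 rest on 16, 2 and 2 reads.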

How the results depend on the processing

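The calls of IL6 at IL6-AS1 (CPA, and CPA with synta-66, against untreated cells), of PTX3 at VEPH1 (3 comparisons), of LIF at LIF-AS2 (CPA against untreated cells) and of IL24 at FCMR (CPA with synta-66 against CPA) held in every alternative run, with adjusted p of at most 0.0444, reached by IL24. Calls of LIF (at LIF-AS2), IL6 (own row) and CXCL8 that did not hold are given with their values in the report. Rows called in all numbered 425, 710 and 433 in CPA against untreated, CPA with synta-66 against CPA and CPA with synta-66 against untreated cells. They were 357 to 441, 568 to 784 and 335 to 427 with 1 library left out, and 508, 803 and 485 with DESeq2. With no minimum fold they were 655, 1060 and 602. Some uncalled own rows changed sign. Without the 3 libraries that stood apart PTX3 gave -0.12 in CPA and -0.19 in CPA with synta-66, each against untreated cells (log2).

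With 1 library left out, the log2 difference of CPA with synta-66 from untreated cells ran from -0.072 to 0.62 for IL6, -0.31 to 0.013 for IL24, -0.031 to 0.63 for IL1A and -0.89 to 2.45 for PTX3. That of CPA with synta-66 from CPA ran from -0.66 to 0.006 for IL1A, -0.89 to 0.87 for IL1B and -1.13 to 0.25 for PTX3, and that of CPA from untreated cells from -0.14 to 2.65 for PTX3. The cause was not tested. Replicate numbers did not pair the libraries (12 same-numbered pairs, correlation of deviations -0.0726 to 0.14, 1 over 0.1), and with the replicate block 441, 723 and 418 rows were called. An overlap of at least 100 bases left no feature for LIF or PTX3, the longest overlap put LIF at LIF-AS1, which was not tested, and DESeq2 gave no adjusted p for CXCL8. Under edgeR's own expression filter, another alternative, CXCL8 had no result either.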
